A study of Mus musculus with 32 samples.

Results

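The 40 genes described here encode collagens, laminins, and other proteins of the basement membrane and the interstitial matrix. They were taken as a fixed list of gene symbols, with the condition that a gene had at least 5 counts in at least 3 libraries of a time point, and all 40 of 40 listed genes met it at 6 h and at 5 d, out of 49671 genes in the deposited table. The list was divided into 9 groups by role: 6 fibrillar collagens, 4 collagen IV chains, 3 collagen VI chains, 7 other collagens, 7 laminin chains, 4 basement membrane linkers, 5 microfibril and matricellular glycoproteins, 2 small leucine-rich proteoglycans, and 2 proteins of collagen maturation. The lowest count of any of these genes in any library was 8.

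RNA was sequenced from primary cortical neurons of late-embryonic WT (C57BL/6) mouse forebrains that were left untreated or exposed to one of the oligoribonucleotides miR-124-5p, Mut.oligo, and miR-92a-1-5p, and harvested after 6 h or 5 d. There were 4 biological replicates in each of the 8 groups, so that 32 libraries were compared. Mut.oligo is a mutated control sequence, and no transgene or deletion was present in any group. By the study's methods, the meninges and superficial vessels were stripped from the cortices before dissociation. The libraries held 24514090 to 73626029 counted reads, and the values below are CPM, the counts of a gene scaled to the counted reads of its library, unless they are called levels per length. Each label also names an experiment batch. There were 7 batches at 6 h and 6 at 5 d, and 0 batches held libraries of both time points.

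Basement membranes are thin sheets of matrix in which a laminin network and a collagen IV network are joined by nidogens and by the heparan sulfate proteoglycans perlecan and agrin. In the brain they surround blood vessels and line the pial surface, and their components are made mainly by vascular, meningeal, and glial cells. Fibrillar collagens form the interstitial fibers of the meninges and the perivascular space. Neurons contribute some members, of which agrin, an organizer of postsynaptic sites, is the best known.

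The mature sequence of one of the oligoribonucleotides is given because its seed was searched in the transcripts of the 40 genes. It is the RefSeq entry for mouse miR-92a-1-5p (GRCm38.p6, chr14:115044437-115044459, plus strand), 23 bases long, written 5′ to 3′ with the seed, bases 2 to 8, in capitals.
miR-92a-1-5p: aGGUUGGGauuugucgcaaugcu

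The levels per length showed which of these genes the cultures expressed most. Counts were divided by the length of the merged exons of each gene and scaled to one total for every library, which gives a value in TPM, the usual per-length unit. In untreated neurons at 6 h, 12 of the 40 genes lay above 10 TPM and 4 lay below 2 TPM. At 5 d, 16 lay above 10 TPM. Agrn, the agrin gene, had 126 ± 7.43 TPM at 6 h and 122 ± 9.43 TPM at 5 d (SD, n = 4). Sparc, which encodes a collagen-binding matricellular protein made by glia and vessels, had 85.5 ± 34.5 TPM at 6 h and 185 ± 66.6 TPM at 5 d. Serpinh1 encodes HSP47, the chaperone of procollagen in the endoplasmic reticulum, and had 76.4 ± 24.9 TPM at 6 h and 184 ± 45.2 TPM at 5 d. At 5 d, Sparc and Serpinh1 lay within one SD of each other, and both means lay above that of Agrn.

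Below these 3 genes, the levels per length dropped to those of the main chains of the basement membrane. Col4a1 and Col4a2, the chains of the common collagen IV trimer, had 30.2 ± 10.9 and 29.1 ± 5.69 TPM at 6 h and 33.9 ± 3.68 and 33.7 ± 4.05 TPM at 5 d, so that they did not differ beyond their spread at either time. Lamc1, the gamma chain present in most laminins, followed with 24.2 ± 3.65 TPM at 6 h. Lamb1, a laminin beta chain, had 15.8 ± 1.64 TPM at 6 h. All 4 alpha chains were lower, from 1.74 TPM for Lama5 to 3.52 TPM for Lama1. The lowest of the 40 genes was Col9a1, a chain of a cartilage collagen, with 0.465 ± 0.254 TPM at 6 h.

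**Figure D1:**
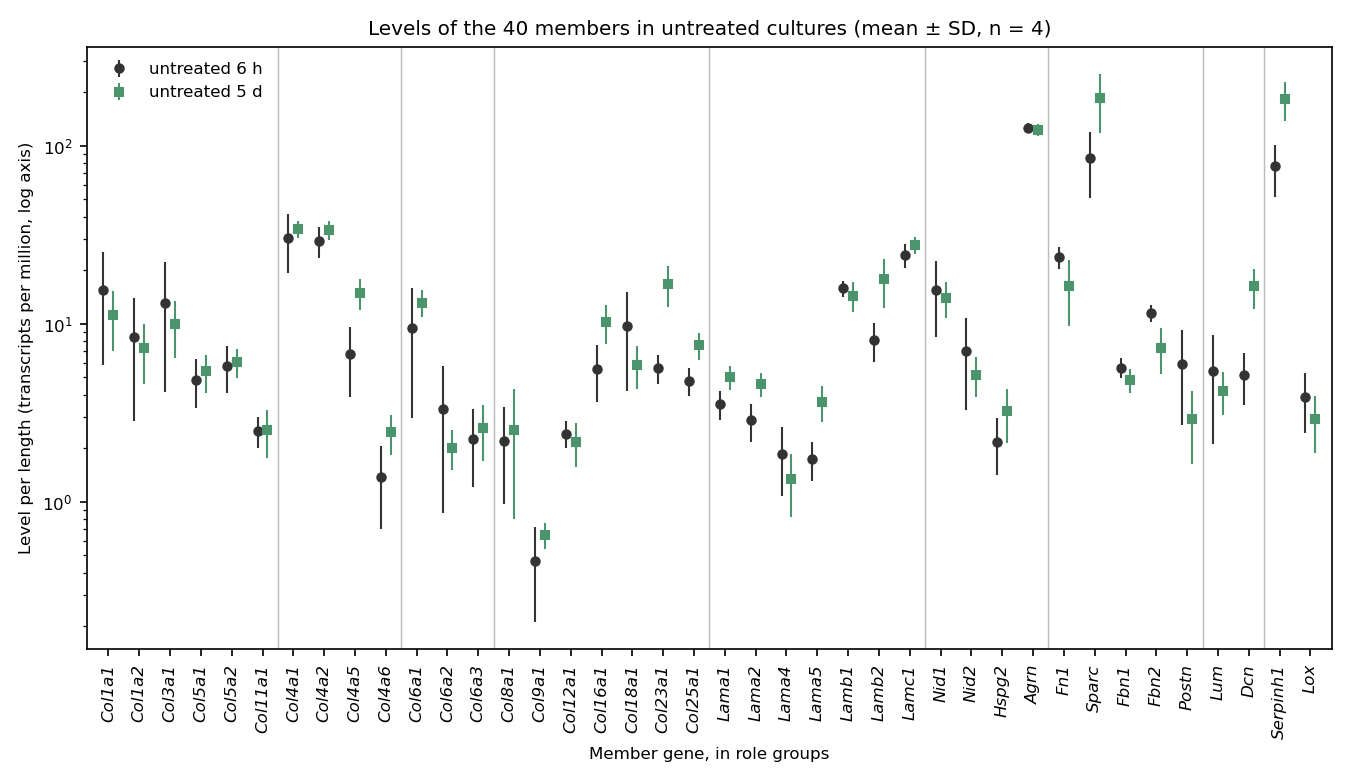
Level per length in untreated cultures (TPM, log axis) of each of the 40 genes, ordered by role group with grey lines between groups. Circles are 6 h and squares 5 d, and bars are the SD of 4 libraries. Agrn, Sparc, and Serpinh1 stand highest and Col9a1 lowest, and the fibrillar and VI collagens have wider bars at 6 h than at 5 d.

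The collagen IV genes lie in pairs that are transcribed away from each other. On chromosome 8, the annotated starts of Col4a1 (chr8:11198423-11312826, minus strand) and Col4a2 (chr8:11312805-11449287, plus strand) are 21 bases apart, and on chromosome X those of Col4a5 (chrX:141475385-141689234, plus strand) and Col4a6 (chrX:141165403-141474076, minus strand) are 1309 bases apart. The promoters are printed because each pair starts within one short stretch of the genome, and the 4 chains are compared below. Each is the RefSeq window (GRCm38.p6) from 250 bases before to 50 bases after a start, read on the strand of its gene, and capitals mark CCAAT and GGGCGG on either strand. The windows are chr8:11312777-11313076, chr8:11312555-11312854, chrX:141475169-141475468, and chrX:141474027-141474326 in the order of the lines, and the first 2 share 78 bases.
Col4a1: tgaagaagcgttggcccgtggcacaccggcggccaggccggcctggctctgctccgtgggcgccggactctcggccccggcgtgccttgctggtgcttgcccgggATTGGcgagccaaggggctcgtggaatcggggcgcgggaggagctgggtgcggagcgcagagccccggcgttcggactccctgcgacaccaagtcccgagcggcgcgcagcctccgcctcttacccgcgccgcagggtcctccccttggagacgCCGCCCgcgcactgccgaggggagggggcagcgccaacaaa
Col4a2: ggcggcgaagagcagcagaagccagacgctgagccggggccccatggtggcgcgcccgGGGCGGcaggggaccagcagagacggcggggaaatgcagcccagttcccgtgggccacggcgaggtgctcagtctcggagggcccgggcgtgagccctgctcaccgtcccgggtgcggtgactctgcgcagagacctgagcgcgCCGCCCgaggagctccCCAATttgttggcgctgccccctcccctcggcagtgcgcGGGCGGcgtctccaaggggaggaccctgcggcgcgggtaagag
Col4a5: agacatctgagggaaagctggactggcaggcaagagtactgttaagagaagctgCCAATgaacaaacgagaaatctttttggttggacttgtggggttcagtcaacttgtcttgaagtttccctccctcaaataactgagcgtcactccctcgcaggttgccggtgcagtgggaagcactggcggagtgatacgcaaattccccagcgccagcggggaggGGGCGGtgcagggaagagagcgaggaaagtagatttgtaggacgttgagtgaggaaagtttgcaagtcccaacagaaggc
Col4a6: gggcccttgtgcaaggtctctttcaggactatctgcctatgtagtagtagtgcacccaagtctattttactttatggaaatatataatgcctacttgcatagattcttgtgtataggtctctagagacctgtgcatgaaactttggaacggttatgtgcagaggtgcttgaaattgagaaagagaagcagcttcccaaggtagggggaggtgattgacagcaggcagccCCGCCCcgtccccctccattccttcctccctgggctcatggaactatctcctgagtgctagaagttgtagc
The windows of Col4a1 and Col4a2 had 74% and 73.7% G and C, and those of Col4a5 and Col4a6 had 52.7% and 48.3%. The TATAAA sequence was in 0 of these 4 windows. Of the 28 of 40 genes with a RefSeq promoter, 21 (75%) held GGGCGG, compared with 35.7% of all 32851 promoters. CCAAT was in 11 (39.3%), compared with 37.4% of all, and TATAAA in 1, compared with 13.6% of all. The median share of G and C was 61.7% in these 28 windows and 52.7% in all. The 32851 promoters were not limited to genes tested here and were not reduced to 1 per gene, as the 28 were. A GGGCGG site in the bases that the Col4a1 and Col4a2 windows share counts for both genes. These shares therefore do not show a trait particular to the 40 genes. Both strands were searched for each of the 3 motifs.

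At 6 h, the levels of most of these genes differed more between experiment batches than between exposures. Col3a1 (chr1:45311538-45349706, plus strand) had the highest mean of the fibrillar collagens. It encodes the chain of collagen III, and its reads cannot be fully separated from those of Gm47302, whose exons overlap it on the same strand. Col3a1 had 62.1 CPM in untreated replicate 4, and the libraries of the same batch had 67.1 after Mut.oligo, 58.5 after miR-124-5p, and 61.6 after miR-92a-1-5p. In the batch of untreated replicate 3, it had 8.27 CPM untreated, 8.93 after miR-124-5p, and 10.999 after miR-92a-1-5p. All 4 libraries of the first batch thus stood far above all 3 of the second, whatever the exposure.

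Other fibrillar and collagen VI chains showed the same split. Col1a2, a chain of collagen I, had 49.96, 50.7, 50.2, and 51.1 CPM in the 4 libraries of the first batch and 8.27, 8.25, and 7.83 in the 3 of the second. Col6a1, the collagen VI chain with the highest level, had 20.8, 20.6, 20.7, and 20.8 CPM in the first and 3.92, 4.84, and 4.30 in the second. Lum, which encodes the collagen-binding proteoglycan lumican, had 4.90 to 5.41 CPM in the first and 0.307 to 1.02 in the second. Within a batch, Col1a2 and Col6a1 varied by far less than between the batches. Lum varied more in proportion within the second batch, where its libraries held 12, 30, and 37 counts.

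The pair of batches was picked after the values were seen, as the most distant of the 3 batches that hold an untreated library and at least 3 libraries. The third of them lay between, with 24.2 to 27.7 CPM of Col3a1, and its mean was between the other two for 31 of the 40 genes. Of the 40 genes, 34 (85%) were higher in all 4 libraries of the first batch than in all 3 of the second, which held for 16.5% of the 18755 genes tested at 6 h. The ratio of the batch means had a median of 2.15 over the 40 genes and exceeded 4 in 9 of them, with the highest value, 7.05, for Lum. The 6 other genes were Col12a1, Col25a1, Lama5, Agrn, Fn1, and Fbn2, and all of these but Col25a1 overlapped between the batches. Agrn had 305 to 368 CPM in the first batch and 306 to 341 in the second. Col25a1, a transmembrane collagen of neurons, was the only gene of the 40 with a ratio below 1 (0.876). It had 13.95 to 16.7 CPM in the first batch and 16.9 to 18.9 in the second, so that it separated the batches in the opposite direction.

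Over all 16 libraries of 6 h, the share of the variance of log2 CPM that lay between batches (adjusted R2) had a median of 0.919 over the 40 genes, from 0.441 for Fbn2 to 0.995 for Col1a2. Over all genes tested, the median was 0.349. It exceeded 0.5 in 39 of the 40 genes and in 34.7% of all genes. The share that lay between the 4 conditions had a median of -0.038 over the 40 genes and -0.042 over all genes. At 5 d, the median share between batches was 0.603 over the 40 genes and 0.322 over all genes. These shares describe the libraries and were not tested.

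**Figure D2:**
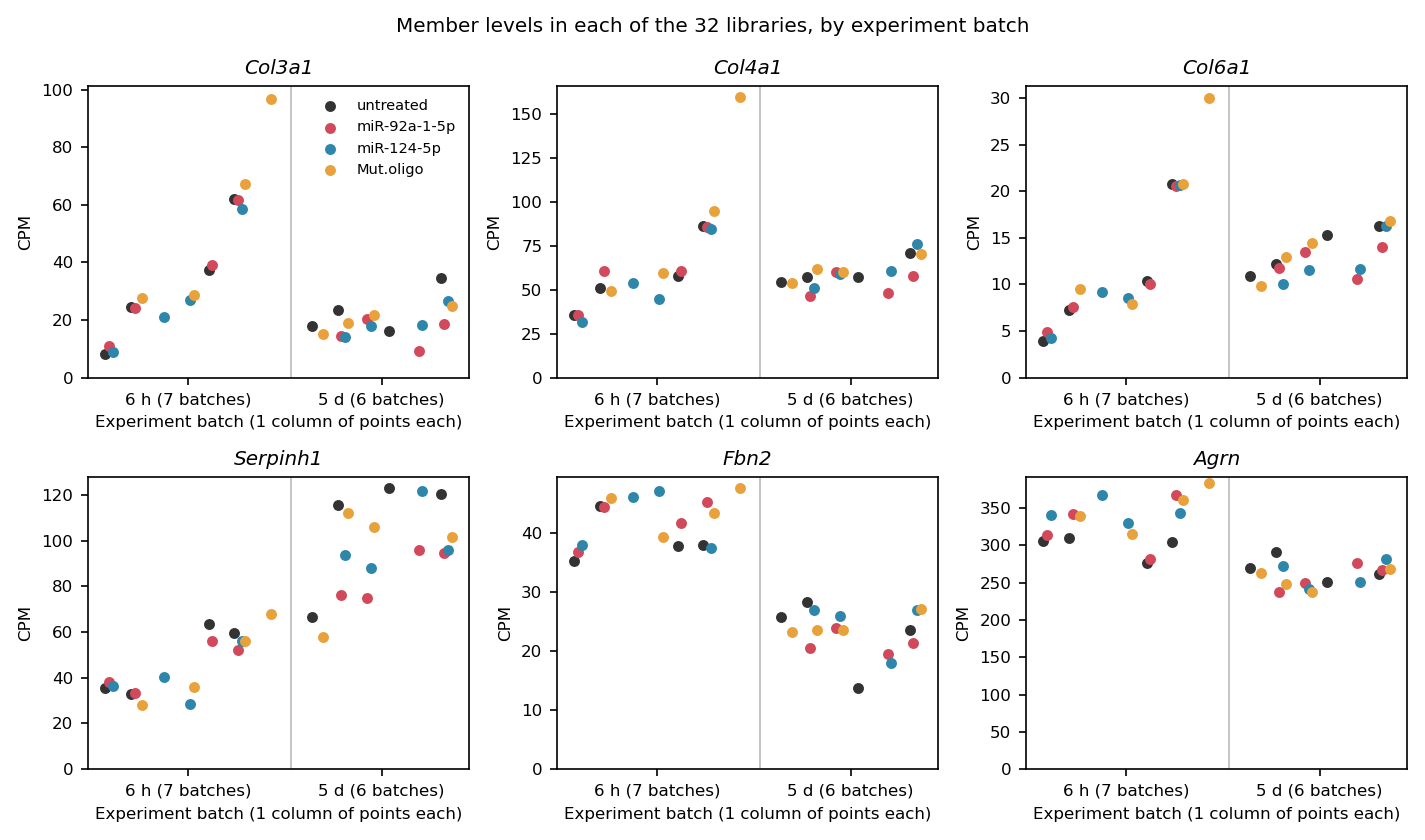
Level (CPM) of 6 of the 40 genes in each of the 32 libraries. Each column of points is 1 experiment batch, in the same order in every panel, and colors are the conditions, with 6 h left and 5 d right of the grey line. For Col3a1, Col4a1, and Col6a1, points of 1 batch lie close together at 6 h while batches differ, whereas Agrn differs little between batches.

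The Mut.oligo library of replicate 4 at 6 h stood apart. It is the only library of its batch, and 38 of the 40 genes had their highest CPM of the 16 libraries of 6 h in it. How many of all genes had their highest CPM in this library is not given here. Col3a1 had 96.8 CPM there and 27.7 to 67.1 in the other 3 Mut.oligo libraries. Col4a1 had 160 CPM there, compared with 49.6 to 94.8, and Hspg2, the perlecan gene, moved in the same direction. The main counts and medians that rest on Mut.oligo at 6 h are therefore also given without this library, as are the falls with time named below.

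Some markers of other cell types moved with the matrix genes across the batches of 6 h. Of 16 markers of meningeal and perivascular fibroblasts, 15 were higher in all 4 libraries of the batch of untreated replicate 4 than in all 3 of the batch of untreated replicate 3, as were 16.5% of all genes tested. Slc6a13, a transporter of meningeal fibroblasts, had 2.19 to 2.77 CPM in the first and 0.128 to 0.302 in the second, and 5.84 in Mut.oligo replicate 4. Aldh1a2, the retinoic acid synthase of the meninges, had 1.93 to 2.74 and 0.330 to 0.333 CPM. The summed level of the 16 markers ran from 172 to 303 CPM in untreated, 207 to 407 after Mut.oligo, 173 to 291 after miR-124-5p, and 175 to 283 after miR-92a-1-5p exposure. Igfbp2, Pdgfra, and Igf2 made up most of this sum, and the other 13 summed to 9.32 to 36.7 CPM in untreated and 17.9 to 59.1 after Mut.oligo exposure. The marker Pdgfra is also on the list of the oligodendrocyte lineage, of which 5 of 10 genes separated the 2 batches in the same way.

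The same order held for 7 of 10 markers of astrocytes and radial glia, 7 of 8 of dividing cells, 5 of 12 of mural cells, 4 of 10 of microglia, 3 of 12 of endothelial cells, and 1 of 12 of cortical neurons, beside 16.5% of all genes. Other markers had the opposite order, with the whole first batch below the second. In the neuron list these were Slc17a7 (26.2 to 28.2 and 42.3 to 46.0 CPM), Tbr1 (116 to 125 and 150 to 157 CPM), Neurod2, Snap25, and Gad2. In the oligodendrocyte list they were Mog and Mbp. Gfap had 6.42 to 71.0 CPM at 6 h. Of the endothelial list, Cldn5, Tie1, and Ly6c1 did not exceed 0.132 CPM in any library, whereas Kdr had 1.48 to 7.69 CPM, Cdh5 up to 2.16, and Pecam1 up to 1.08 at 6 h. The labelled cell type was present in every library, with Tubb3 between 2061 and 2514 CPM at 6 h and between 786 and 1679 CPM at 5 d. In bulk samples such as these, fewer cells of a type and less RNA per cell cannot be told apart, and the part of these cell types in the levels of the matrix genes was not tested.

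**Figure D3:**
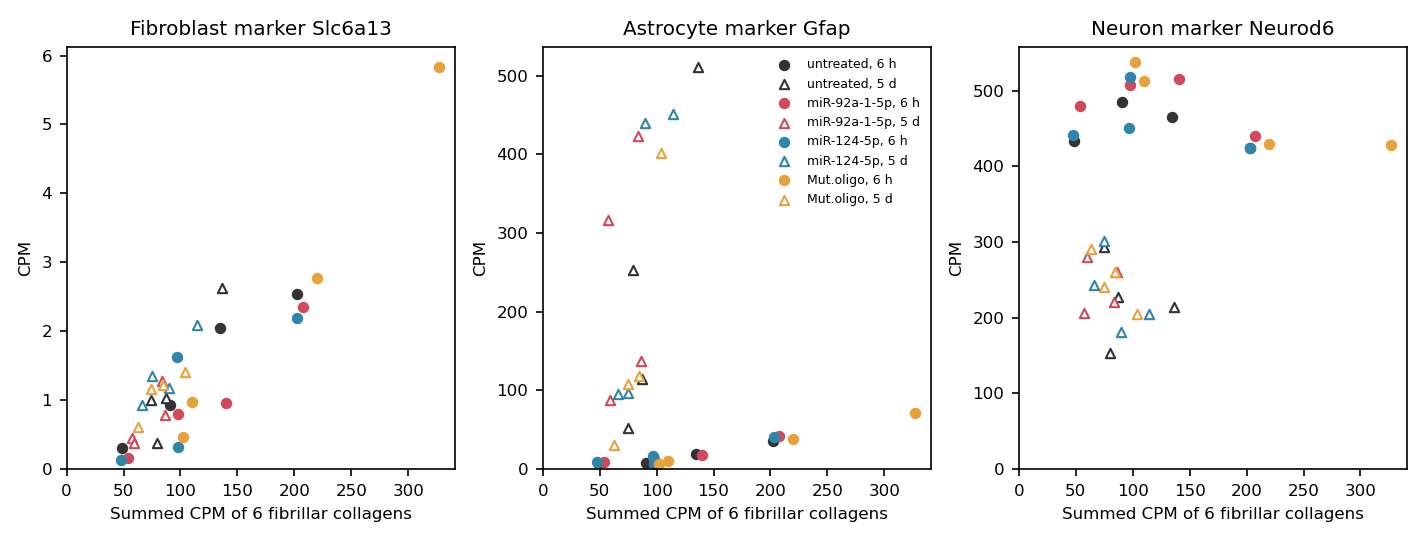
Level (CPM) of 1 marker each of fibroblasts, astrocytes, and neurons against the summed CPM of the 6 fibrillar collagens, with 1 point per library, filled circles for 6 h and open triangles for 5 d. At 6 h, libraries with more fibrillar collagen have more Slc6a13, and Neurod6 lies between 424 and 538 CPM in all 16 libraries of that time.

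After 6 h of exposure, no gene of the 40 passed the threshold in the comparison of any oligoribonucleotide to untreated, which was an adjusted p under 0.05 (edgeR, Benjamini-Hochberg over all genes) together with a change of more than 0.5 on the log2 scale. The share of all genes past the threshold was 0% in each of the 3 comparisons. At an unadjusted p under 0.05, there were 9 of the 40 genes after Mut.oligo, 1 after miR-124-5p, and 0 after miR-92a-1-5p exposure, compared with 9.48%, 4.54%, and 4.75% of all genes. DESeq2 also called 0 of the 40 genes in these comparisons.

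After 6 h of Mut.oligo exposure, 37 of the 40 genes had a fold change above 0, with a median log2 fold change of 0.46, whereas the median over all genes was near 0 (-0.00037). Without replicate 4 of Mut.oligo, the median was 0.18, 32 genes were above 0, and 4 had an unadjusted p under 0.05, as did 5.76% of all genes. With the batch covariate, the median was 0.08. Hspg2 had the largest of the 9 differences, with a log2 fold change of 1.11 ± 0.39 (SE) and an adjusted p of 0.428 (edgeR), and 0.73 ± 0.38 without this library. For miR-92a-1-5p, whose 4 libraries share their batches with the 4 untreated libraries, the median was 0.06 without and 0.07 with the covariate.

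With the batch covariate, 0 of the 40 genes passed the threshold at 6 h, up or down, for any of the 3 oligoribonucleotides. The share of all genes that were then lower was 0.0213% for Mut.oligo, 0% for miR-124-5p, and 0.133% for miR-92a-1-5p. Fbn1, which encodes the microfibril protein fibrillin-1, had the smallest unadjusted p after Mut.oligo exposure, with a log2 fold change of 0.38 ± 0.07 and an adjusted p of 0.087. The Fbn1 level was higher in 2 of 2 shared batches for Mut.oligo and in 4 of 4 for miR-92a-1-5p.

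After 5 d of exposure, the comparison without a covariate again called 0 of the 40 genes for any oligoribonucleotide. Past the threshold were 0.00517% of all genes for miR-92a-1-5p, 0% for Mut.oligo, and 0% for miR-124-5p. After miR-92a-1-5p exposure, 38 of the 40 genes had a fold change below 0, with a median log2 fold change of -0.20, compared with -0.001 over all genes, and 3 had an unadjusted p under 0.05, as did 3.63% of all genes. For Mut.oligo the median was -0.09, and for miR-124-5p it was 0.02. DESeq2 without a covariate called 0 of the 40 genes as well.

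In a fit that held the experiment batch, Col4a6, Postn, and Serpinh1 were downregulated after 5 d of miR-92a-1-5p exposure, 3 of the 40 genes, while 0.347% of all 19333 genes were called lower. The median log2 fold change of the 40 genes was -0.23. Only 2 batches held both an untreated and a miR-92a-1-5p library at 5 d. Within both of these, 31 of the 40 genes lay below untreated in the exposed library, and 1 lay above it. For miR-124-5p, 18 lay below and 8 above within its 2 shared batches. The same count over all genes is not given here.

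Col4a6 encodes a collagen IV chain of smooth muscle and other specialized basement membranes. At 5 d it had 6.37, 3.48, 4.51, and 4.23 CPM in the 4 untreated libraries and 3.18, 3.601, 2.64, and 2.23 CPM with miR-92a-1-5p. The 2 groups overlapped, since 1 untreated library lay below the highest exposed one. The log2 fold change was -0.65 ± 0.21 without the covariate, with an adjusted p of 0.853, and -0.84 ± 0.09 with it, with an adjusted p of 0.00204 (edgeR). Over the 9 ways of fitting without leaving out a library, its adjusted p ran from 1.96e-06 to 0.9996. In the 2 shared batches, the difference was -0.82 and -0.93 on the log2 scale.

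Col4a6 was also downregulated after 5 d of Mut.oligo exposure with the covariate, the only one of the 40 genes, while 0.0466% of all genes were called lower. Its level was 4.18, 2.35, 3.36, and 2.73 CPM. The log2 fold change was -0.58 ± 0.08, with an adjusted p of 0.029 (edgeR), and within the 3 shared batches the difference was between -0.63 and -0.57. After miR-124-5p exposure it had 4.18, 4.86, 3.31, and 2.82 CPM, and 0 of the 40 genes were called, with 0.0259% of all genes lower. Col4a6 was thus lower than untreated within every shared batch for all 3 oligoribonucleotides.

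Postn (chr3:54361109-54391037, plus strand) encodes periostin, a matricellular protein of fibroblasts. It had 6.59, 3.26, 4.77, and 9.25 CPM untreated at 5 d and 2.60, 3.35, 5.28, and 5.84 CPM after miR-92a-1-5p, so that the groups overlapped. Its log2 fold change was -0.46 ± 0.32 with no covariate, and between -0.65 and -0.15 when single libraries were left out. With the covariate it was -0.66 ± 0.12 with an adjusted p of 0.0288 (edgeR), and over the 9 ways of fitting the adjusted p ran from 0.00073 to 1.

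Serpinh1 (chr7:99345376-99353239, minus strand) had 120.4, 66.6, 123, and 116 CPM untreated at 5 d and 96.1, 94.5, 74.98, and 76.1 CPM after miR-92a-1-5p. Its lowest untreated library lay below all 4 exposed ones. Its log2 fold change was -0.29 ± 0.17 with no covariate, and between -0.45 and -0.22 when single libraries were left out. With the covariate it was -0.50 ± 0.07 with an adjusted p of 0.0107 (edgeR), just past the minimum fold change. Sparc, at -0.36 ± 0.07 in the same fit (adjusted p = 0.0348, edgeR), did not reach the minimum. With DESeq2 and the same covariate, 5 of the 40 genes were called lower. The share of all genes that DESeq2 then called is not given here.

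**Figure D4:**
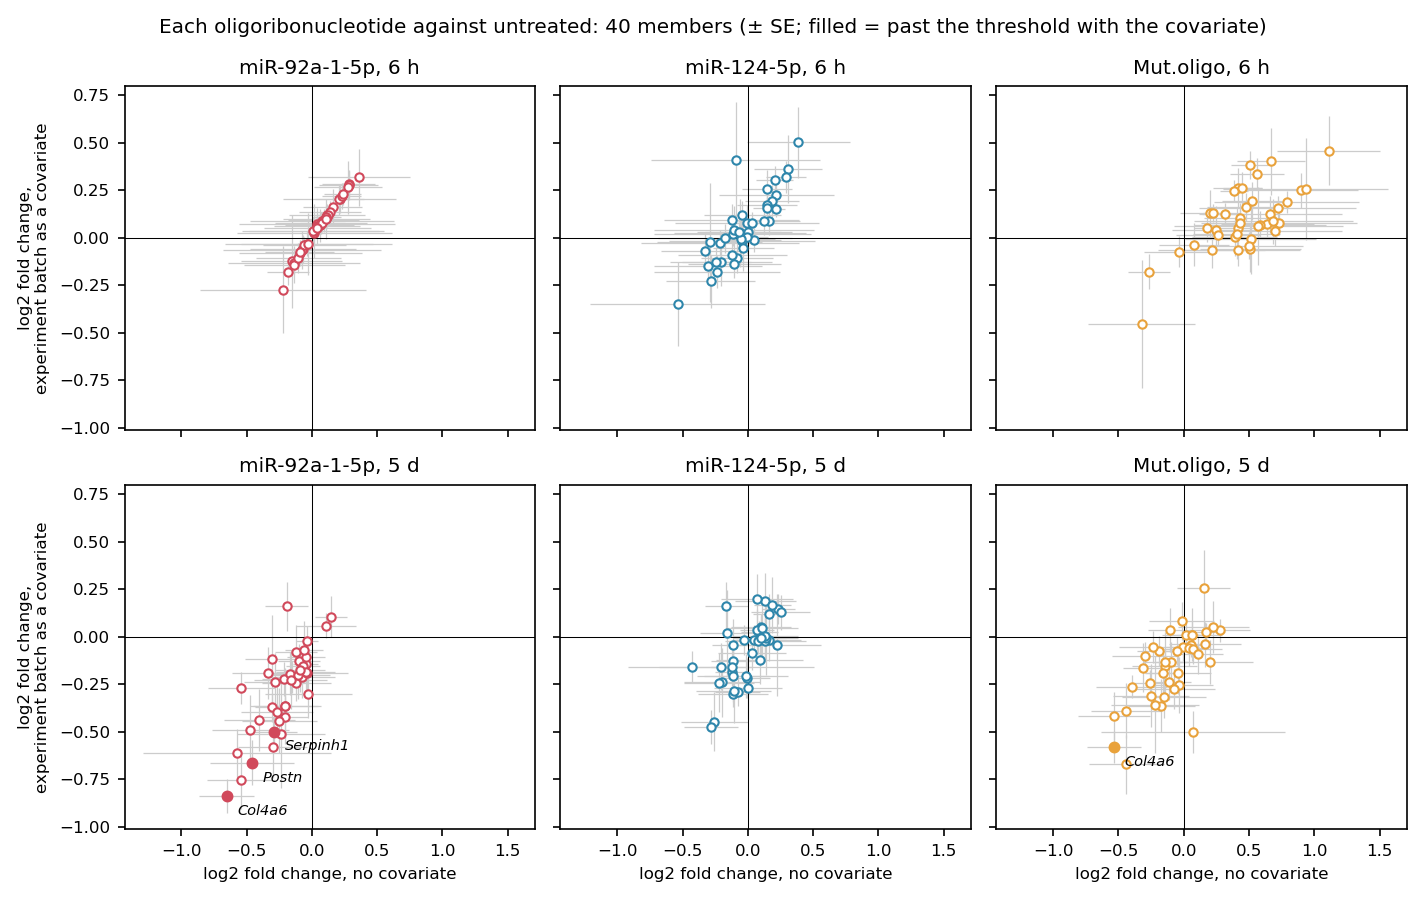
Log2 fold change of the 40 genes against untreated in the fit with the experiment batch (vertical axis) and without it (horizontal axis), for each oligoribonucleotide at 6 h (top) and 5 d (bottom). Bars are standard errors, and filled points passed the threshold with the covariate: Col4a6, Postn, and Serpinh1 for miR-92a-1-5p and Col4a6 for Mut.oligo, all at 5 d.

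Some marker sums were also lower after 5 d of miR-92a-1-5p exposure, some of them after the other oligoribonucleotides too, and others overlapped with untreated. The summed level of the 16 fibroblast markers was 135 to 186 CPM in untreated, 102 to 136 after Mut.oligo, 130 to 143 after miR-124-5p, and 98.7 to 121 after miR-92a-1-5p exposure, so that the untreated and miR-92a-1-5p libraries did not overlap. The 3 most abundant of them carried this gap, at 112 to 151 and 83.1 to 95.0 CPM, whereas the other 13 overlapped, at 14.5 to 35.8 and 15.02 to 25.6 CPM. The sum of the 8 markers of dividing cells was 134 to 146 CPM in untreated, 91.4 to 109 after Mut.oligo, 90.8 to 127 after miR-124-5p, and 76.5 to 123 after miR-92a-1-5p. In the same order, the sum of 12 endothelial markers was 6.68 to 12.5, 4.28 to 6.61, 5.70 to 7.35, and 4.48 to 5.65 CPM. The oligodendrocyte lineage had 168 to 206, 125 to 138, 112 to 196, and 86.8 to 169 CPM. Between untreated and miR-92a-1-5p, the sums of astrocytes and radial glia (2404 to 3862 and 2153 to 3237 CPM), mural cells (39.4 to 56.6 and 31.9 to 52.3), and microglia (32.7 to 52.8 and 33.1 to 45.7) overlapped. The part of these cells in the lower matrix levels was not tested.

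Compared with Mut.oligo, the other two oligoribonucleotides gave 0 calls among the 40 genes at 6 h and at 5 d (edgeR), and the share of all genes past the threshold was 0% in all 4 comparisons. With unadjusted p under 0.05, there were 3 genes for miR-124-5p and 1 for miR-92a-1-5p at 6 h, and 1 for each at 5 d, compared with 3.58% and 2.12% of all genes at 6 h and 1.68% and 1.98% at 5 d. Without Mut.oligo replicate 4, the counts of 6 h were 0 and 0. DESeq2, and the fit with the batch covariate, called 0 of the 40 genes too. The median log2 fold change at 6 h was -0.51 for miR-124-5p and -0.35 for miR-92a-1-5p, and without Mut.oligo replicate 4 it was -0.18 and -0.09.

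From 6 h to 5 d, some members of most role groups passed the threshold in untreated cultures, as did many other genes. In untreated neurons, 10 of the 40 genes (25%) rose and 3 (7.5%) fell, compared with 20.7% and 13.3% of the 20182 genes tested. In miR-92a-1-5p, 8 rose and 6 fell, where 19.6% and 14.7% of all genes did. In miR-124-5p, 9 rose and 3 fell, where 20.5% and 14.1% did. In Mut.oligo, 6 rose and 15 fell, where 19.5% and 15.1% did. Time and experiment batch cannot be told apart, because no batch spans the 2 times.

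The fibrillar collagens, which form the fibers of the interstitial matrix, gave no call with time in untreated cultures or in either of the miRNA exposures. Their log2 fold changes in untreated cultures lay between -0.56 for Col1a1 and 0.07 for Col5a1. In Mut.oligo, 4 of 6 fell, Col1a1, Col3a1, Col5a2, and Col11a1. Col3a1 had 24.4, 37.4, 8.27, and 62.1 CPM untreated at 6 h and 34.7, 18.0005, 16.2, and 23.5 at 5 d, so that all values of 5 d lay inside the range of 6 h. Without Mut.oligo replicate 4 of 6 h, the number of the 40 genes that fell in Mut.oligo was 7 in place of 15 and the number that rose 8 in place of 6. Of the 4 fibrillar chains, Col1a1 was then still called (-1.22), whereas Col3a1 (-0.99), Col5a2 (-0.52), and Col11a1 (-0.62) were not.

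Among the collagen IV chains, Col4a5, an alternative chain of basement membranes, rose in untreated cultures by 1.06 ± 0.33 on the log2 scale (adjusted p = 0.00737, edgeR). Its promoter is that printed as the third above. It had 0.65 in Mut.oligo, where it did not pass, and also rose by 1.24 in miR-124-5p and by 0.91 in miR-92a-1-5p. Col4a6, its neighbor on the X chromosome, had 0.73 in untreated and did not pass in any of the 4 conditions. Col4a1 had 51.3, 57.7, 35.9, and 86.3 CPM at 6 h and 70.8, 54.7, 57.4, and 57.3 at 5 d, so the groups overlapped, and its log2 fold change was 0.08. Col4a2 had 0.13.

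The collagen VI chains gave no call in untreated cultures, with 0.38 for Col6a1, -0.81 for Col6a2, and 0.11 for Col6a3 on the log2 scale. Col6a1 had 7.30, 10.3, 3.92, and 20.8 CPM at 6 h and 16.3, 10.9, 15.3, and 12.2 at 5 d. The spread of 6 h covered all values of 5 d. Col6a2 had -1.43 in Mut.oligo, where it was called, and -1.02 in miR-92a-1-5p, where it was not. Without Mut.oligo replicate 4 of 6 h it had -1.04 and was not called, and the difference between Mut.oligo and untreated was -0.63 ± 0.70 and did not pass.

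Of the 7 other collagens, 3 rose with time in untreated cultures. Col23a1 (chr11:51289920-51583918, plus strand), a transmembrane collagen, had 7.86, 7.69, 7.03, and 10.495 CPM at 6 h and 20.2, 29.97, 16.8, and 23.9 at 5 d. The 2 sets of libraries did not overlap, and the log2 fold change was 1.49 ± 0.24. Col25a1 had 15.4, 12.3, 18.9, and 16.7 CPM at 6 h and 17.98, 23.3, 27.8, and 23.7 at 5 d, with 1 overlapping value, and rose by 0.57 ± 0.17. Col16a1, a fibril-associated collagen, rose by 0.77 ± 0.31. Col12a1, another fibril-associated collagen, had -0.24 in untreated and did not pass, but fell in miR-92a-1-5p (-0.86), miR-124-5p (-0.62), and Mut.oligo (-1.10, and -0.87 without replicate 4 of 6 h). The difference between these changes and that of untreated did not pass in any of the 3 interaction tests.

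Of the laminin chains, Lama2, Lama5, and Lamb2 rose in untreated cultures by 0.59 ± 0.20, 0.98 ± 0.27, and 1.04 ± 0.28 on the log2 scale. Lama2 encodes the alpha chain of muscle and glial basement membranes, and Lamb2 the beta chain of the synaptic and vascular laminins. The remaining 4 did not pass. Lamc1 had 48.1, 55.2, 42.1, and 60.2 CPM at 6 h and 61.4, 46.7, 52.2, and 57.2 at 5 d, with a log2 fold change of 0.11. Lamb2 was called in all 4 conditions, by 0.73 in Mut.oligo, 1.12 in miR-124-5p, and 0.86 in miR-92a-1-5p.

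The 4 basement membrane linkers gave no call in untreated cultures. Agrn had 309.8, 275.8, 306, and 305 CPM at 6 h and 261, 269, 251, and 291 at 5 d, a log2 fold change of -0.13. The 2 sets of libraries overlapped in 1 library each. The log2 fold change of Agrn was -0.40 in Mut.oligo, -0.38 in miR-124-5p, and -0.29 in miR-92a-1-5p, below the minimum fold change. Nid1 and Nid2, the nidogen genes, fell in Mut.oligo by 1.05 and 1.17 on the log2 scale, and without Mut.oligo replicate 4 of 6 h they had -0.66 and -0.63 and were not called.

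Among the glycoproteins, Sparc rose and Fn1, Fbn2, and Postn fell in untreated cultures. Sparc had 59.2, 99.6, 50.9, and 123 CPM at 6 h and 225, 108, 215, and 118 at 5 d, a log2 fold change of 1.02 ± 0.32. The 2 sets overlapped, since 1 library of 6 h lay above 2 of 5 d. Fn1, the fibronectin gene, had 82.3, 72.7, 59.3, and 68.7 CPM at 6 h and 48.0, 34.3, 28.9, and 68.7 at 5 d. Only the highest library of 5 d lay in the range of 6 h, and the log2 fold change was -0.62 ± 0.22 and was not called without untreated replicate 2 or 3 of 5 d or replicate 1 of 6 h. Fbn2 encodes fibrillin-2, the fibrillin of developing tissues, and had 44.5, 37.8, 35.2, and 38.0 CPM at 6 h and 23.5, 25.8, 13.7, and 28.2 at 5 d. The sets did not overlap, with a log2 fold change of -0.73 ± 0.16. Postn had 11.8, 13.7, 5.01, and 22.7 CPM at 6 h and 6.59, 3.26, 4.77, and 9.25 at 5 d, with a log2 fold change of -1.13 ± 0.44. The sets overlapped, and Postn was not called without untreated replicate 2 or 3 of 5 d or replicate 4 of 6 h.

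Dcn (chr10:97479609-97518143, plus strand) encodes decorin, a small proteoglycan that binds collagen fibrils, and had the largest rise of the 40 genes in untreated cultures. It had 6.97, 8.89, 4.62, and 10.4 CPM at 6 h and 24.5, 14.8, 29.0, and 21.5 at 5 d, with no overlap. The log2 fold change was 1.55 ± 0.31, with an adjusted p of 0.000108 (edgeR). Lum, the other proteoglycan, had -0.44 and did not pass. Serpinh1 had 32.8, 63.7, 35.6, and 59.5 CPM at 6 h and 120.4, 66.6, 123, and 116 at 5 d, with no overlap and a log2 fold change of 1.17 ± 0.24. Lox, the lysyl oxidase that cross-links collagen, had -0.49 in untreated and fell in miR-92a-1-5p (-0.85) and Mut.oligo (-1.34, and -1.17 without replicate 4 of 6 h).

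In all 4 conditions, 4 genes rose, Col23a1, Lamb2, Dcn, and Serpinh1, and 2 fell, Fn1 and Fbn2. Another 14 of the 40 genes were called in none of the conditions, and 0 were called in opposite directions. The sign of the fold change was the same in all 4 conditions for 29 genes, 11 above 0 and 18 below 0. In single conditions, 19.5% to 20.7% of all genes rose and 13.3% to 15.1% fell. Counts over the 4 conditions together are not given here for all genes, so these numbers do not set the 40 genes apart. Gfap, an astrocyte marker, had 6.42 to 71.0 CPM at 6 h and 30.6 to 511 CPM at 5 d. Neurod6, a marker of young excitatory neurons, had 424 to 538 CPM at 6 h and 153 to 302 CPM at 5 d. Slc17a7, a glutamate transporter of maturing neurons, had 25.1 to 46.0 and 91.4 to 146 CPM, and the sum of the 12 neuron markers in untreated cultures was 6005 to 6439 and 5052 to 6372 CPM. The summed markers of astrocytes and radial glia in untreated cultures were 834 to 1401 CPM at 6 h and 2404 to 3862 at 5 d, and their part in the changes of the matrix genes was not tested.

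**Figure D5:**
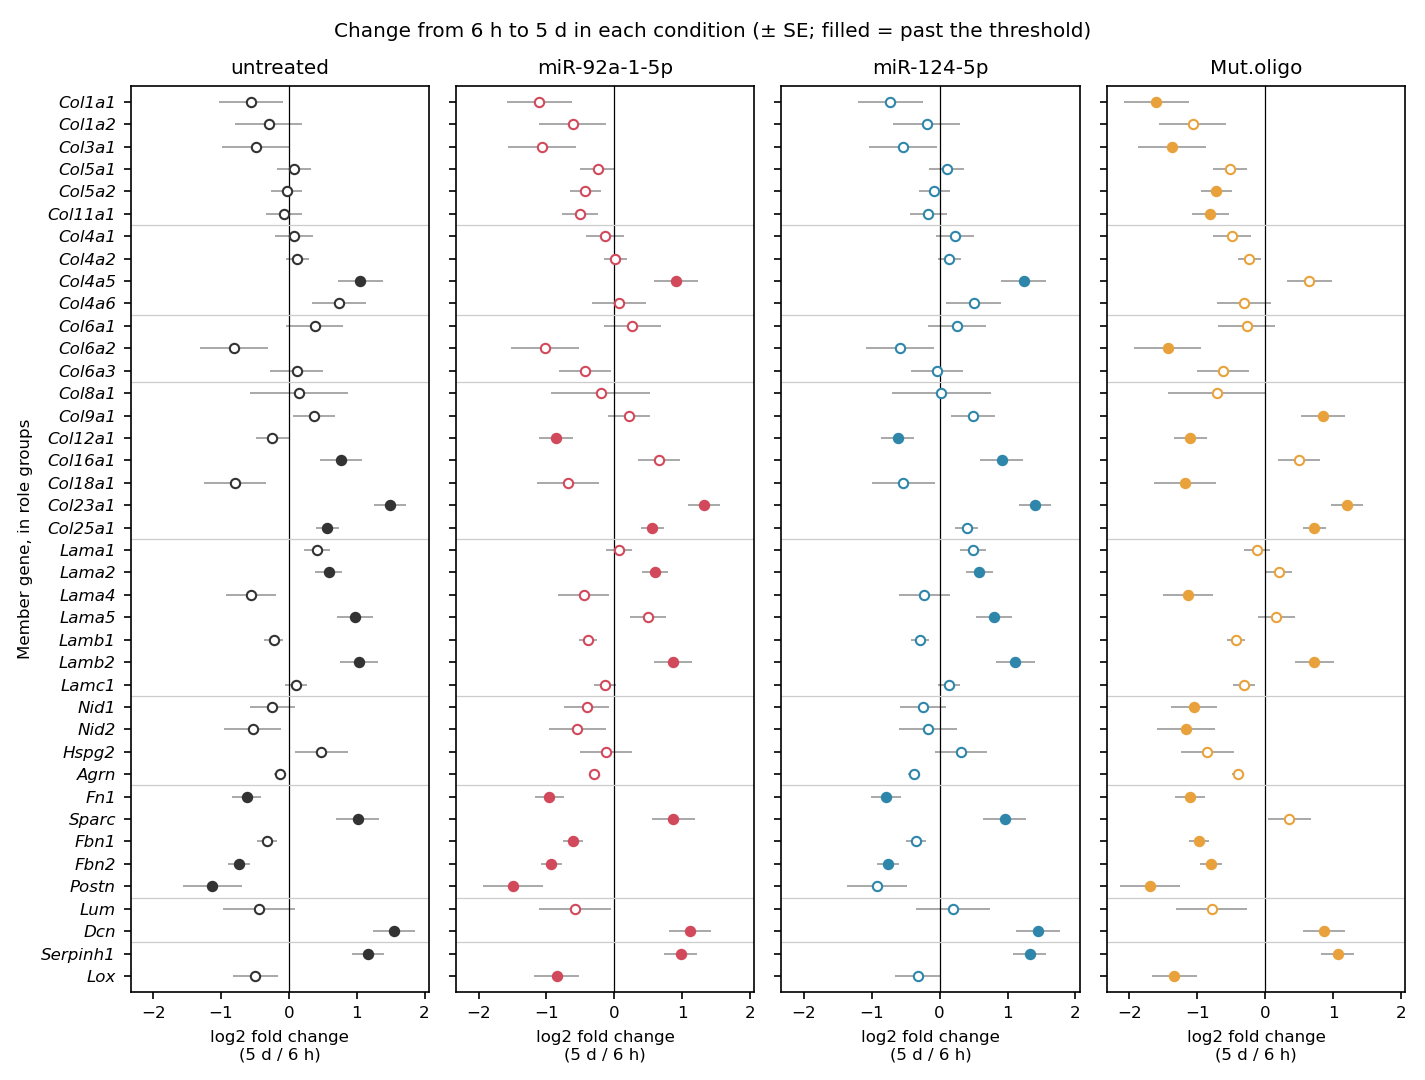
Log2 fold change of the 40 genes from 6 h to 5 d in each of the 4 conditions, ordered by role group. Bars are standard errors, and filled points passed the threshold of adjusted p and fold change. Col23a1, Lamb2, Dcn, and Serpinh1 lie right of 0 and Fn1 and Fbn2 left of 0 in every condition, and Mut.oligo has most filled points on the left.

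Without a covariate, the difference between the change from 6 h to 5 d in each oligoribonucleotide and that in untreated passed for 0 of the 40 genes and 0% of all genes (edgeR). DESeq2 also gave 0 calls among the 40. At an unadjusted p under 0.05, there were 6 genes for Mut.oligo, 1 for miR-124-5p, and 0 for miR-92a-1-5p, compared with 5.06%, 2.66%, and 3.88% of all genes, and without Mut.oligo replicate 4 of 6 h there was 1 for Mut.oligo. The median difference over the 40 genes was -0.59 for Mut.oligo, -0.02 for miR-124-5p, and -0.21 for miR-92a-1-5p, and without Mut.oligo replicate 4 of 6 h the first became -0.22. In the fit with the batch covariate, the difference for miR-92a-1-5p passed for Col3a1, at -0.83 ± 0.17 with an adjusted p of 0.0487 (edgeR), and for Col4a6, at -0.87 ± 0.17 with an adjusted p of 0.0449, while 0.0991% of all genes were called lower.

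The genes around the matrix proteins were counted in 3 further lists, beside 20.7% of all genes that rose and 13.3% that fell with time in untreated cultures. Of 27 matrix receptors, 8 rose and 3 fell with time in untreated cultures. Ddr2, a receptor tyrosine kinase for fibrillar collagen, rose by 1.75 ± 0.23 and Sdc2, a syndecan, by 1.22 ± 0.10 on the log2 scale, and Sdc1 had -1.24 ± 0.08 and Itga11, the alpha subunit of a collagen-binding integrin, -1.66 ± 0.41. Of 28 enzymes that modify and process collagen, 8 rose and 0 fell. Ppib, the prolyl isomerase that acts with prolyl 3-hydroxylase, rose by 1.60 ± 0.07, and P4ha1, a prolyl 4-hydroxylase subunit, by 0.56 ± 0.08. Of 28 matrix proteases and inhibitors, 10 rose and 1 fell. Timp3, a metalloproteinase inhibitor bound to the matrix, rose by 1.87 ± 0.19, Serpine2 by 1.49 ± 0.17, and Adamts20 had -0.57 ± 0.15. Against untreated, these lists gave 0 calls in the fit with no covariate, and in that with the batch only Timp4, at -0.60 ± 0.09 (adjusted p = 0.0107, edgeR) after 5 d of miR-92a-1-5p. With the same covariate, the change of Adamts15 with time differed from untreated by 0.53 ± 0.09 for miR-92a-1-5p.

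The sequence complementary to the seed of miR-92a-1-5p, CCCAACC, was searched on the sense strand of the annotated 3′ UTRs. It was found in 5 of the 40 genes (12.5%), compared with 10.7% of the 15541 tested genes with an annotated 3′ UTR. A match is a description of the letters in these windows and was not tested.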

How the data were processed

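Poly(A) RNA of 32 libraries was sequenced. The deposited values are raw read counts per gene, which the authors made with STAR and featureCounts (Subread) on GRCm38, counting exons by strand. The count table was used as deposited, with 0 unused sample columns.

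The 40 members and all gene lists were chosen with earlier results of these data known. Genes that reached 5 counts in 3 or more libraries of a time point were tested with edgeR 4.0.16 (TMM, quasi-likelihood test, R 4.3.3), with all groups in the fit and Benjamini-Hochberg adjustment over all genes. A call needed an adjusted p below 0.05 and a change past 0.5 on the log2 scale. Alternatives were DESeq2 1.42.0, the experiment batch as a covariate, other size factors and filters, a replicate block, and leaving out each library. Levels per length used merged exons of the GRCm38 annotation at hand. Variance shares used log2(CPM + 0.1). The procedure was tested on simulated counts. These had the same spread for every gene and no batch differences, so they cannot show how the fit with the batch covariate behaves here. Replicates differed by more than sampling noise in all 48 pairs (chi-square per degree of freedom of 6.60 to 101).

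Values per library are given for the member with the highest mean CPM of each role group, every member called against untreated with or without the batch covariate, and the 3 largest rises and falls with time in untreated cultures. Tables were handled and figures drawn with Python 3.11.15, pandas 2.3.3, numpy 2.4.6, and matplotlib 3.10.9. The sequence and position of a single seed match are not reported here.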

Additional observations from a re-analysis of the deposited data

Results flagged for a closer look

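Among 112 groups of 4 libraries checked for a single distant value, 5 had one, where chance gives about 1 in 20. Agrn was lowest in untreated replicate 2 at 6 h, with 275.8 CPM against 305.3 in the next library. Serpinh1 was lowest in untreated replicate 2 at 5 d, with 66.6 CPM against 115.7. Col4a1 was highest in untreated replicate 1 at 5 d, with 70.8 CPM against 57.4. Fbn2 was lowest in miR-124-5p replicate 1 at 5 d, with 17.9 CPM against 25.9, and highest in Mut.oligo replicate 1 at 5 d, with 27.0 CPM against 23.6.

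When the fit held the experiment batch, the change from 6 h to 5 d differed between miR-92a-1-5p and untreated by -0.83 ± 0.17 (SE) on the log2 scale for Col3a1 and by -0.87 ± 0.17 for Col4a6, with adjusted p of 0.0487 and 0.0449 (edgeR). Without the covariate neither difference passed.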

How the results depend on the processing

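When the fit held the experiment batch, the number of the 40 genes called lower went from 0 to 3 for miR-92a-1-5p at 5 d, from 0 to 1 for Mut.oligo at 5 d, and from 0 to 2 for the difference of time changes of miR-92a-1-5p. DESeq2 with the batch gave 5, 1, and 5, and its shares over all genes are not given here. With the adjusted p alone, 5 genes fell with time in miR-124-5p in place of 3. Leaving out each library in turn, 8 to 13 genes rose and 1 to 3 fell in untreated (1 without untreated replicate 2 or 3 of 5 d), 5 to 9 rose and 5 to 10 fell in miR-92a-1-5p (5 rose without its replicate 1 of 5 d, 10 fell without its replicate 1 of 6 h), 7 to 11 rose and 2 to 3 fell in miR-124-5p, and 3 to 8 rose and 7 to 18 fell in Mut.oligo (3 rose without its replicate 2 or 3 of 6 h, 7 fell without its replicate 4 of 6 h). The counts of genes called higher and of genes called lower against untreated and against Mut.oligo stayed at 0 without any one library. The sign reversed for Serpinh1 in Mut.oligo at 5 d without Mut.oligo replicate 2 (0.016) and for Postn without untreated replicate 4 (0.15), with ranges of -0.30 to 0.016 and -0.35 to 0.15 over the libraries left out, and neither was called. The causes were not tested. A filter of 10 counts in every library left out 1 of the 40 genes at 6 h. Time with the batch as a covariate could not be fitted, because batches are nested in time.

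Same-numbered libraries were not treated as pairs, because not every pair had a correlation above 0.1. The correlation ran from -0.30 to 0.35 at 6 h, where 6 of 24 pairs exceeded 0.1, and from -0.27 to 0.51 at 5 d, where 13 of 24 did. At 5 d, 13 of the 24 pairs shared an experiment batch, and the median was 0.14, compared with -0.069 for other numbers. At 6 h, 1 of 16 libraries correlated best with its own number, and at 5 d, 6 of 16 did. With the replicate block, 10 genes rose and 3 fell with time in untreated, 4 fell in miR-124-5p in place of 3, and 0 were called in every comparison between conditions.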
